A study of Mus musculus with 12 samples.

Results

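Gene expression was compared between young My-HSCs and young Ly-HSCs, the myeloid-biased and the lymphoid-biased fractions of mouse hematopoietic stem cells (HSCs), across 9934 of the 14143 genes in the expression table. A gene entered when it reached an FPKM of at least 1 in 3 or more of the 6 young libraries. FPKM counts the fragments on a transcript relative to its length and to the mapped total of the library. All mice were female C57BL6J, and each of the 4 groups of the study held 3 libraries from separate groups of mice, and p-values reflect the variation among such pools. The young mice were 8 to 10 weeks old per the sample labels and up to 12 weeks old per the protocol, and the old mice, which enter near the end, were 18 months old. Both fractions were sorted as bone marrow cells without the mature-lineage antigens of the cocktail, positive for Sca-1 and c-kit and negative for CD48 and CD135. Ly-HSCs were the cells with low CD150 on their surface and My-HSCs those with high CD150, so the subsets are gates on 1 antigen and not separate lines of cells.

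HSCs renew themselves and replenish every blood lineage, and single HSCs differ in the mixture of lineages they produce. Cells with high CD150, a receptor of the signalling lymphocytic activation molecule family, are known to yield relatively more myeloid and platelet progeny, and cells with low CD150 relatively more lymphoid progeny. CD34, CD27 and CD135 are known to be gained as HSCs proceed to multipotent progenitors, while von Willebrand factor marks HSCs with a platelet bias. The comparison addresses which transcripts accompany the CD150 gate before ageing.

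The young libraries were uneven. Between 25.0% and 34.1% of all genes were listed at 0 in the Ly-HSC libraries, against 19.3% to 26.1% in the My-HSC libraries, and among the tested genes 9.48% were at 0 in Ly-HSC library 1 against 0.252% to 4.06% in the other 5. Read totals are unknown. Depth estimated from low values was 0.444 in Ly-HSC library 1 and 0.707 to 0.959 in the other libraries, with My-HSC library 3 set to 1. Library 1 of the Ly-HSCs also had low correlations with the others across genes, at 0.643 to 0.701, where the other pairs lay at 0.695 to 0.873. The Ly-HSC libraries did not group by subset, with correlations among themselves of 0.643 to 0.741. Each of them correlated most with My-HSC library 3, at 0.701, 0.820 and 0.776. The median SD of a gene over 3 libraries was 0.70 on the log2 scale in young Ly-HSCs and 0.41 in young My-HSCs. For most gene lists below, the median without Ly-HSC library 1 is given beside the median over all 6.

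No gene passed the test between the young subsets. With limma on log2(FPKM + 1), 0 of 9934 genes (0%) had a Benjamini-Hochberg adjusted p under 0.05, and the smallest adjusted p was 0.494. At an unadjusted p under 0.05 there were 689 genes (6.94%), of which 445 (4.48%) were higher and 244 (2.46%) lower in My-HSCs. All 3 My-HSC values lay above all 3 Ly-HSC values in 857 genes (8.63%) and below them in 472 genes (4.75%), together 13.4% of the tested genes. With 3 libraries against 3, an exact two-sided permutation test of 1 gene cannot go below 0.10, so separation of the libraries is given as a count and not as a call. Of the 857 genes, 221 were listed at 0 in at least 1 Ly-HSC library. The filter itself placed 117 genes among the tested that reached 1 FPKM in all 3 My-HSC libraries and in no Ly-HSC library, against 7 of the opposite kind, and those had to differ.

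The middle of the distribution was shifted toward My-HSCs. Of the tested genes, 58.6% were higher in My-HSCs, and the median gene had a log2 fold change of 0.12. Quantile normalization brought it to 0.01, median-of-ratios scaling to 0.07, rescaling of FPKM to TPM to 0.19 and omission of Ly-HSC library 1 to 0.05. With relative depth as a covariate, 49.2% of genes were higher in My-HSCs. Every fold change below is My-HSC over Ly-HSC on the log2(FPKM + 1) scale, which understates the change of low genes, and is to be read against the shift of 0.12. Errors after ± are limma standard errors for log2 fold changes and SDs (n = 3) for FPKM.

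**Figure D1:**
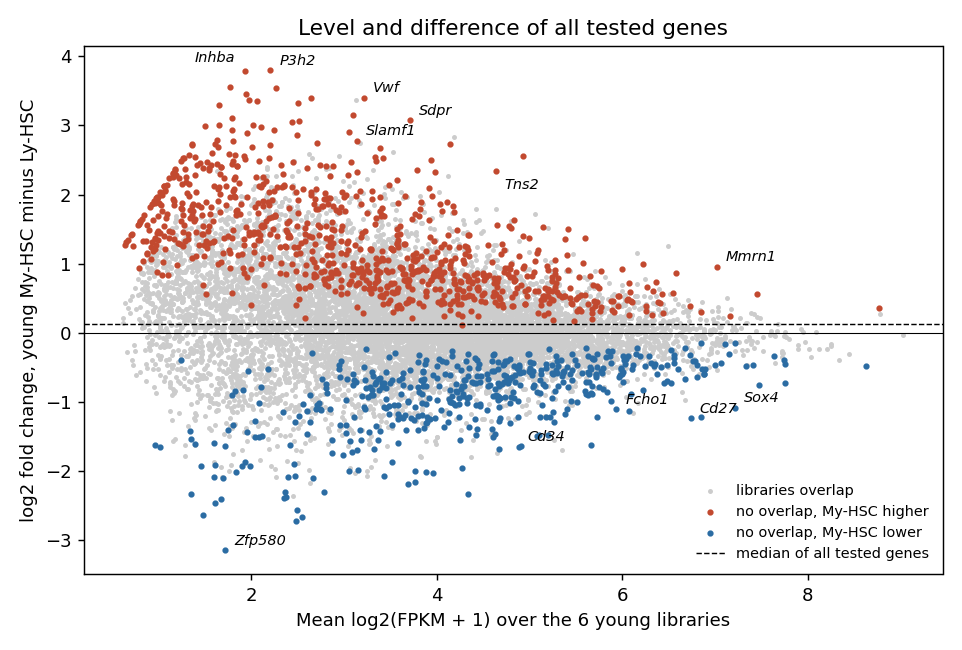
Log2 fold change between the young subsets (My-HSC minus Ly-HSC) against the mean log2(FPKM + 1) over the 6 young libraries, 1 point per tested gene. Red and blue points are the 857 and 472 genes whose libraries do not overlap between the subsets, and the dashed line is the median of 0.12; red points reach larger differences at low expression, on the left.

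When the old libraries were added to the fit, so that all 12 libraries shared 1 estimate of the spread, 13 genes (0.131%) passed at an adjusted p under 0.05, and all 13 were higher in young My-HSCs. Among them, Vwf, Sdpr, P3h2, Tns2, Gda and Rpn1 were above 0 in all 6 young libraries. By contrast, Inhba, Gadd45b, Zfp456, Cept1, Slc17a8 and Chil5 were listed at 0 in at least 1 Ly-HSC library. Inhba, P3h2, Zfp456, Chil5 and Slc17a8 reached 1 FPKM in no young Ly-HSC library. The filter thus fixed their direction, and their calls are no evidence of it. Gda, Rpn1, Cept1 and Slc17a8 are named because this fit called them, after their values were seen. The old libraries varied less than the young, with a median SD of 0.33 in old Ly-HSCs and 0.26 in old My-HSCs, so the shared estimate is smaller than the young libraries alone would give.

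Slamf1, which encodes CD150 and checks the sort, stood higher in My-HSCs. The 3 young Ly-HSC libraries measured 4.87, 1.39 and 1.704 FPKM and the 3 My-HSC libraries 33.96, 20.9 and 15.01 FPKM, in the order of library 1, 2 and 3 that all triplets here follow, with Ly-HSCs first where values are set against each other. The lowest My-HSC library was thus above the highest Ly-HSC library, and the group levels were 2.66 ± 1.93 and 23.3 ± 9.71 FPKM. The log2 fold change of 2.78 ± 0.62, or 6.86-fold, did not pass (limma adjusted p = 0.494; 0.051 with all 12 libraries). Ly6a, which encodes Sca-1 and was selected for in both gates, measured 3.83, 3.15 and 1.24 FPKM in Ly-HSCs and 16.9, 16.1 and 5.06 FPKM in My-HSCs, with no overlap. Flt3, which encodes CD135 and was selected against in both gates, measured 2.58, 21.99 and 21.9 FPKM in Ly-HSCs and 0.571, 0.792 and 4.01 FPKM in My-HSCs. The Flt3 ranges overlapped because Ly-HSC library 1 lay below My-HSC library 3. Cd48, also selected against, was listed at 0, 4.73 and 0 FPKM in Ly-HSCs and 0, 0.0596 and 0 FPKM in My-HSCs and was not tested. Kit was not analysed here. Fewer cells that carry a transcript and less of it per cell cannot be told apart in such bulk libraries, for these genes and for all below.

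The 250 bases before the annotated start are shown for 4 genes around which the comparison turns, the sort antigen Slamf1, the caveolar gene Sdpr (named Cavin2 in RefSeq), and Cd34 and Cd27, both lower in My-HSCs. Sequences are from RefSeq on GRCm38.p6, where 29 of 35 genes looked up had an entry, and run 5′ to 3′ on the strand of the gene. Capitals mark matches on either strand to sites recognised by the GATA factors of megakaryocytic and erythroid cells, which read AGATAA in one form, AGATAG in another, TGATAA in the next and TGATAG in the last, and to GGAAG, the core recognised by ETS factors such as Fli1 and PU.1.
Slamf1, chr1:171766882-171767131, plus strand: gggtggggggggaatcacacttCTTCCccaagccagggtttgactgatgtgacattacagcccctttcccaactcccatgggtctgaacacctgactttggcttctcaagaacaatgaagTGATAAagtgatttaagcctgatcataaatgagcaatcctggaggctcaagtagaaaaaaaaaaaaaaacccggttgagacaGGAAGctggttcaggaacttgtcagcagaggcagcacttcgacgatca
Sdpr, chr1:51288876-51289125, plus strand: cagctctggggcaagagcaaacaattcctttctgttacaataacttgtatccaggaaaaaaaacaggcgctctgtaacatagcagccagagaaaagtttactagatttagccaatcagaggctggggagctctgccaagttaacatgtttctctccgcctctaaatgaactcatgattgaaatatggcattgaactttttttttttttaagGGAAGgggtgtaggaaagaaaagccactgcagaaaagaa
Cd34, chr1:194938571-194938820, plus strand: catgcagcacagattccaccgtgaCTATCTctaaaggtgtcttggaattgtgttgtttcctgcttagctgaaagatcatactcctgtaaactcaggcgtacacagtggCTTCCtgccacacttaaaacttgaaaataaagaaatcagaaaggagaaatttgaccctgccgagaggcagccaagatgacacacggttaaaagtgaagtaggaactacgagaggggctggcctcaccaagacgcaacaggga
Cd27, chr6:125237028-125237277, minus strand: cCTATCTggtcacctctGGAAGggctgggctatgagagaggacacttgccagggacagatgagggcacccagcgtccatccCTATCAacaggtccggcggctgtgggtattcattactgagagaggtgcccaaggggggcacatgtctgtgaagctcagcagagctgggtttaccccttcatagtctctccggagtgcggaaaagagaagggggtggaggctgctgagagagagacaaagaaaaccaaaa
The Slamf1 window held 1 GATA match and 2 ETS matches, the Sdpr window 1 ETS match, the Cd34 window 1 of each and the Cd27 window 2 GATA matches and 1 ETS match. None of these matches overlapped another. A GATA match occurs in 26.5% and an ETS match in 64.1% of 32851 RefSeq promoter windows of this length. The windows held no TGTGGT, the core for RUNX factors (14% of all windows), and no CAGCTG, an E-box (13%). The matches describe the letters of these windows and say nothing of binding.

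Genes of megakaryocytes and platelets lay higher in My-HSCs. Of 19 tested members of that list, 13 were higher (58.6% of all tested genes were), with a median log2 fold change of 0.61 against 0.12 for all genes, and it stayed above 0 under each scaling (0.20 with quantile normalization to 0.77 as TPM) and without Ly-HSC library 1 (0.61). In 7 members the My-HSC libraries lay wholly above the Ly-HSC libraries, against a background of 8.63%, and in none wholly below (4.75%). Clu, 1 of the 7, passed the filter through the My-HSC libraries alone and had to separate. Vwf, von Willebrand factor, which platelets carry in their granules, measured 2.03, 5.71 and 0.143 FPKM in Ly-HSCs and 36.6, 24.6 and 27.6 FPKM in My-HSCs. Its log2 fold change of 3.40 ± 0.70 (10.6-fold) had an adjusted p of 0.494 in the young libraries alone and of 0.0292 with all 12 (limma). Sdpr, or cavin-2, a coat protein of caveolae, measured 0.565, 7.38 and 5.96 FPKM in Ly-HSCs and 32.3, 34.7 and 45.2 FPKM in My-HSCs (8.44-fold, adjusted p = 0.0292 with all 12 libraries). For both genes every Ly-HSC library lay well below the lowest My-HSC library.

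Mmrn1, the platelet granule protein multimerin 1, was abundant in both subsets without overlap, at 94.03 ± 21.6 FPKM in Ly-HSCs (101, 69.9 and 111) and 181 ± 15.3 FPKM in My-HSCs (164, 195 and 183), a log2 fold change of 0.96 ± 0.22. Clu, the chaperone clusterin, was near 0 in Ly-HSCs at 0.0444, 0.0224 and 0 FPKM and low in My-HSCs at 2.41, 4.85 and 2.97 FPKM. The remaining 3 members without overlap are named after their values were seen: Fli1, an ETS factor of megakaryocytes, at 53.2, 89.1 and 52.6 against 100.1, 101 and 116 FPKM, Zfpm1, the GATA1 partner FOG1, at 174, 123 and 138 against 229.8, 182 and 231 FPKM, and Gp5, platelet glycoprotein V, at 0.506, 0 and 1.22 against 5.67, 1.55 and 4.61 FPKM. Fli1 and Zfpm1 were thus well expressed in both subsets, while Gp5 lay close to the limit of the filter. On GRCm38, Vwf lies on chromosome 6 from 125546774 to 125686679, Sdpr on chromosome 1 from 51289126 to 51302960, Mmrn1 on chromosome 6 from 60924976 to 60989378 and Slamf1 (ENSMUSG00000015316.11) on chromosome 1 from 171767127 to 171801184.

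Several named genes outside that list had little or no signal in Ly-HSCs and levels well above the filter minimum in every My-HSC library. Of these, Inhba, P3h2, Chil5, Zfp456 and Bpifb5 passed the filter through the My-HSC libraries alone, are among the 117 genes that had to differ, and are given as a description. Inhba, the activin subunit beta A, was listed at 0.0808, 0 and 0 FPKM in Ly-HSCs and at 11.6, 14.1 and 14.1 FPKM in My-HSCs (adjusted p = 0.494 by limma, 0.0198 with all 12 libraries). P3h2, a prolyl 3-hydroxylase of collagen, measured 0.0599, 0.333 and 0.337 FPKM in Ly-HSCs and 18.9, 22.7 and 9.899 FPKM in My-HSCs, a log2 fold change of 3.80 ± 0.65 (13.96-fold, adjusted p = 0.0166 with all 12 libraries). Gadd45b, a stress-inducible regulator of growth arrest, stood at 0, 1.83 and 0 FPKM in Ly-HSCs and 13.1, 17.1 and 16.6 FPKM in My-HSCs (adjusted p = 0.0198 with all 12 libraries). In Inhba and P3h2 every Ly-HSC library was under the filter minimum of 1 FPKM, and in Gadd45b Ly-HSC library 2 was above it.

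Chil5, a chitinase-like protein, was listed at 0 in all 3 Ly-HSC libraries and at 20.8, 7.92 and 7.28 FPKM in My-HSCs. Zfp456, a zinc finger protein, was listed at 0, 0.712 and 0.0678 against 10.1, 14.2 and 10.9 FPKM, and Bpifb5, of the lipid-binding BPI fold family, at 0, 0.551 and 0 against 17.8, 9.37 and 9.66 FPKM. Because a listed 0 can be a failed estimate, no fold is given for these genes. Among genes expressed in both subsets, Tns2, the focal adhesion protein tensin 2, measured 10.3, 20.8 and 4.48 FPKM in Ly-HSCs and 74.5, 46.5 and 48.2 FPKM in My-HSCs (5.08-fold, adjusted p = 0.0445 with all 12 libraries). Mrfap1, a binding partner of the MORF4 family, measured 20.6, 39.1 and 30.7 FPKM in Ly-HSCs and 78.1, 79.96 and 73.6 FPKM in My-HSCs (2.59-fold). Both genes were well above the filter in all 6 libraries.

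The set of genes chosen by the same rule was completed by Krtcap2 and E2f3. Krtcap2, a subunit of the oligosaccharyltransferase of the endoplasmic reticulum, stood at 4.03, 6.23 and 0.974 FPKM in Ly-HSCs and 35.6, 30.6 and 15.1 FPKM in My-HSCs. E2f3, a transcription factor of the G1 to S transition, stood at 0.0971, 14.7 and 0.384 against 34.2, 19.2 and 22.5 FPKM, with Ly-HSC library 2 far above the other Ly-HSC libraries. Rpn1, ribophorin I, another subunit of the same transferase, was called with all 12 libraries, at 13.9, 15.9 and 20.1 FPKM in Ly-HSCs and 37.03, 41.7 and 38.6 FPKM in My-HSCs (adjusted p = 0.0445). On GRCm38, Inhba lies on chromosome 13 from 16011851 to 16031621, P3h2 on chromosome 16 from 25959288 to 26105784 and Tns2 on chromosome 15 from 102100413 to 102116401.

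Markers of multipotent progenitors lay lower in My-HSCs. All 4 tested members of the list, among them Cd34, Cd27 and Flt3, were lower, with a median log2 fold change of -2.001, of -1.78 without Ly-HSC library 1, and below 0 under each scaling. In 3 of the 4 the libraries did not overlap, against 4.75% of all tested genes, and the summed level of the 7 members with values was 204.7 to 280.7 FPKM in Ly-HSCs and 66.1 to 123.2 FPKM in My-HSCs. Cd34, a sialomucin of progenitors, measured 54.6, 40.3 and 61.2 FPKM in Ly-HSCs and 9.34, 20.6 and 19.7 FPKM in My-HSCs. Its group levels were 52.01 ± 10.7 and 16.5 ± 6.26 FPKM, 3.14-fold higher in Ly-HSCs (log2 fold change -1.65 ± 0.37, limma adjusted p = 0.494). Cd27, a receptor of the tumour necrosis factor family, was the more abundant, at 169, 135 and 189 FPKM in Ly-HSCs and 55.4, 59.3 and 98.4 FPKM in My-HSCs (log2 fold change -1.23 ± 0.26).

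**Figure D2:**
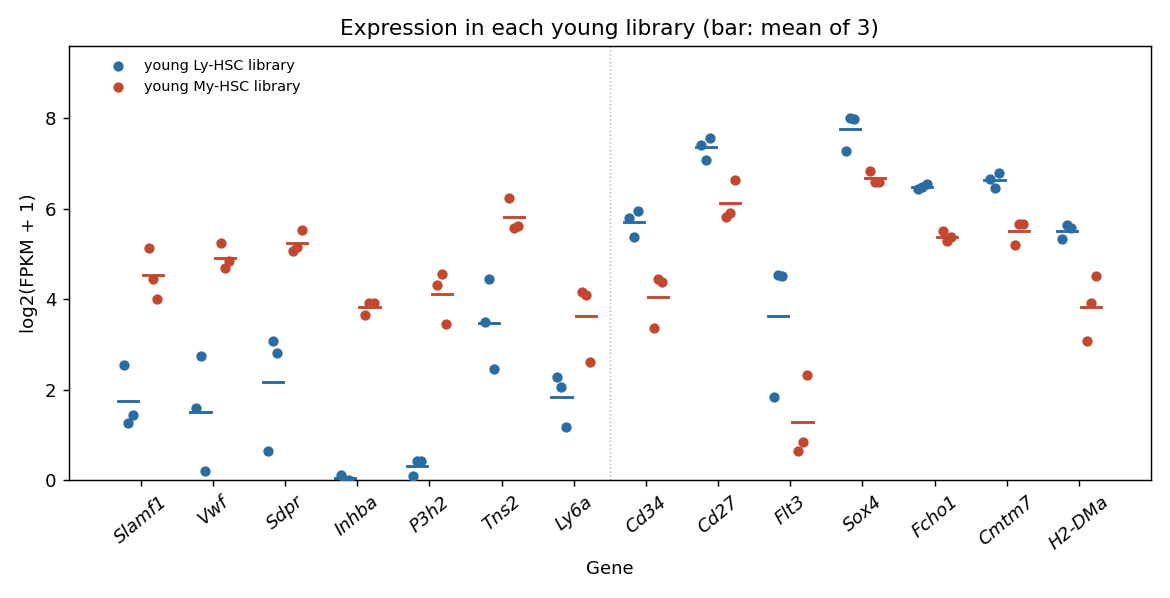
Log2(FPKM + 1) of 14 genes in each young library; blue points are Ly-HSC libraries, red points My-HSC libraries and bars the mean of 3. The 7 genes left of the dotted line are higher in My-HSCs and the 7 on the right lower; the colours do not overlap in any gene but Flt3, and Ly-HSC points spread more widely than My-HSC points in Vwf and Sdpr.

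Other abundant genes also lay lower in My-HSCs. Sox4, a transcription factor needed for early B cell development, measured 154, 257 and 250.5 FPKM in Ly-HSCs and 113, 94.9 and 95.4 FPKM in My-HSCs (log2 fold change -1.08 ± 0.24). Fcho1, which starts clathrin-coated pits, measured 88.8 ± 3.93 FPKM in Ly-HSCs (85.4, 87.97 and 93.1) and 40.8 ± 3.23 FPKM in My-HSCs (44.3, 37.9 and 40.3), 2.15-fold higher in Ly-HSCs. Cmtm7, a MARVEL-domain membrane protein linked to B cell receptor signalling, measured 101, 86.5 and 110.4 FPKM in Ly-HSCs and 35.7, 49.7 and 49.6 FPKM in My-HSCs. In all 3 genes the lowest Ly-HSC library was above the highest My-HSC library, and their limma adjusted p was 0.494.

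Psma5, a proteasome core subunit, measured 130.5, 56.4 and 91.7 FPKM in Ly-HSCs and 27.98, 36.7 and 21.2 FPKM in My-HSCs. Ccdc125, a coiled-coil protein, measured 70.3, 40.1 and 64.5 against 17.9, 18.999 and 22.4 FPKM, and Cnn2, the actin-binding calponin 2, 69.8, 42.5 and 58.3 against 23.4, 23.9 and 23.1 FPKM. Sephs2, a selenophosphate synthetase, stood at 63.98, 51.4 and 53.1 against 20.4, 12.7 and 27.7 FPKM. The log2 fold changes of these 4 genes lay between -1.62 and -1.21, with no overlap of the libraries. H2-DMa, a chaperone of peptide loading on class II molecules, stood at 39.01, 49.1 and 46.8 FPKM in Ly-HSCs and 7.39, 13.97 and 21.9 FPKM in My-HSCs (log2 fold change -1.69 ± 0.40), and Shisa8 at 29.8, 32.4 and 21.9 against 4.74, 3.19 and 10.2 FPKM. On GRCm38, Cd34 lies on chromosome 1 from 194938819 to 194961279, Cd27 on chromosome 6 from 125232622 to 125237010, Sox4 on chromosome 13 from 28948919 to 28953713 and Fcho1 on chromosome 8 from 71708387 to 71725716.

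Larger fold changes in this direction occurred at lower levels. Zfp580, a zinc finger protein, had the lowest log2 fold change of the named genes, -3.14 ± 0.75, from 6.81, 23.6 and 3.93 FPKM in Ly-HSCs to 0, 0.0609 and 0.292 FPKM in My-HSCs, and is 1 of the 7 genes that passed the filter through the Ly-HSC libraries alone. Slc39a3, the zinc transporter ZIP3, measured 13.5, 10.7 and 7.91 FPKM in Ly-HSCs against 1.28, 1.33 and 1.36 FPKM in My-HSCs. Its My-HSC libraries were almost equal, and the log2 fold change was -2.30 ± 0.61. Ncf4, the p40 subunit of the phagocyte NADPH oxidase, stood at 13.4, 13.8 and 6.74 against 0.3595, 0.816 and 3.796 FPKM. Tefm, a mitochondrial transcription elongation factor, stood at 44.3, 8.73 and 6.21 against 3.697, 0.539 and 0.733 FPKM, its highest value by far in Ly-HSC library 1. Mettl18, a protein methyltransferase, at 12.2, 6.64 and 15.03 against 0.04898, 3.29 and 1.49 FPKM, and the zinc finger gene Zfp772, at 24.2, 4.24 and 18.8 against 0.747, 4.19 and 0.382 FPKM, completed the set.

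Lymphoid priming genes lay slightly lower in My-HSCs. Of 16 tested members 6 were higher and 10 lower, with a median log2 fold change of -0.20 (-0.23 without Ly-HSC library 1), negative under each scaling. Libraries did not overlap in 3 lower members, Cd27 and Notch1 among them, and in 1 higher member, Ets1, against 4.75% and 8.63% of all tested genes. Notch1, the receptor that directs the T cell fate, measured 28.3, 15.5 and 13.8 FPKM in Ly-HSCs and 10.2, 8.602 and 12.6 FPKM in My-HSCs, while the transcription factor Ets1 stood at 1.12, 2.64 and 0.384 against 2.95, 2.99 and 4.43 FPKM. Markers of mature lymphocytes were low in both subsets, with 1 of 8 measured B lineage markers and 1 of 11 measured T and NK markers passing the filter. Their summed levels were 0.114 to 18.2 FPKM in Ly-HSCs and 2.93 to 26.1 FPKM in My-HSCs for B lineage, and 4.09 to 32.5 and 6.80 to 19.5 FPKM for T and NK. Cd3d, Cd3e, Cd3g, Cd8a and Igll1 were at 0 in all 6 libraries.

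Myeloid priming genes also lay lower in the myeloid-biased subset. Of 9 tested members 2 were higher and 7 lower in My-HSCs, where 58.6% of all tested genes were higher. The median was -0.38 (-0.82 without Ly-HSC library 1), negative under each scaling. Csf3r, the receptor for granulocyte colony-stimulating factor, was the 1 member without overlap, where 4.75% of all tested genes separated downward and 8.63% upward. It measured 64.1, 57.4 and 85.9 FPKM in Ly-HSCs and 35.996, 31.8 and 42.4 FPKM in My-HSCs (log2 fold change -0.88 ± 0.26). Cebpa, a transcription factor of granulocytes and monocytes, stood at 13.3, 1.51 and 7.12 against 0, 2.81 and 0 FPKM and overlapped through Ly-HSC library 2. Spi1, which encodes PU.1, stood at 19.2, 48.9 and 41.5 against 20.5, 26.1 and 17.1 FPKM, with Ly-HSC library 1 inside the My-HSC range. Itgam, which encodes CD11b, stood at 0.369, 14.2 and 32.9 against 0, 6.69 and 3.29 FPKM and Irf8, a factor of monocytes and dendritic cells, at 0.127, 0.6003 and 2.69 against 1.903, 3.42 and 1.44 FPKM, and neither separated the subsets. The summed monocyte and macrophage markers, of which Itgam is 1, were 1.81 to 34.5 FPKM in Ly-HSCs and 18.1 to 53.0 FPKM in My-HSCs, and Cx3cr1 was at 0 throughout. The part of such cells in these levels was not tested.

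HSC identity genes were mixed. Of 25 tested members 17 were higher in My-HSCs, a share of 68.0% against 58.6% of all genes, with a median of 0.24 (0.37 without Ly-HSC library 1), positive under each scaling. Without overlap, 6 were higher and 3 lower, against 8.63% and 4.75% of all tested genes. Hoxb5, a homeobox gene used as a reporter of long-term HSCs, was listed at 0, 0.356 and 0 FPKM in Ly-HSCs and 9.75, 4.64 and 10.7 FPKM in My-HSCs, a separation that its entry through the My-HSC libraries alone made certain (limma adjusted p = 0.494). Fgd5, a guanine nucleotide exchange factor also used as an HSC reporter, measured 42.9, 42.4 and 38.1 FPKM in Ly-HSCs and 65.7, 61.3 and 72.3 FPKM in My-HSCs (log2 fold change 0.68 ± 0.22). Ctnnal1, or alpha-catulin, measured 14.7, 9.803 and 13.4 against 27.4, 22.01 and 32.5 FPKM. Tek, the angiopoietin receptor Tie2, stood at 4.61, 22.3 and 14.1 FPKM in Ly-HSCs and 37.5, 39.3 and 22.8 FPKM in My-HSCs, the Ly-HSC libraries differing severalfold among themselves. Cd34, described above, and Esam, an adhesion molecule, at 39.9, 40.1 and 48.9 against 19.5, 29.5 and 31.9 FPKM, were among those lower.

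Most genes known from the literature to increase in HSCs with age were higher in young My-HSCs. This list was assembled with earlier results of these data known, and it holds Slamf1 itself, so it is no independent evidence of a direction. Of 28 tested members 25 were higher, with a median of 1.16 against 0.12 for all genes, between 0.90 and 1.77 under the other scalings and 1.38 without Ly-HSC library 1. In 14 members all My-HSC libraries lay above all Ly-HSC libraries, and in none below, against 8.63% and 4.75% of all genes, and 2 of the 14, Clu and Wwtr1, had passed the filter through the My-HSC libraries alone. Beside Vwf, Sdpr and Slamf1, Sult1a1, a sulfotransferase, measured 27.1, 3.79 and 13.8 FPKM in Ly-HSCs and 144, 53.4 and 51.01 FPKM in My-HSCs (log2 fold change 2.56 ± 0.63). Gda, guanine deaminase, named after its call with all 12 libraries, measured 13.2, 11.4 and 4.62 against 32.5, 30.9 and 33.95 FPKM (adjusted p = 0.0445 in that fit).

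Receptors and adhesion genes showed small shifts. Among integrin and adhesion genes 17 of 28 were higher in My-HSCs, with a median of 0.17 that turned to -0.10 without Ly-HSC library 1, and 3 members separated in each direction, against 8.63% upward and 4.75% downward of all tested genes. Itgb1, integrin beta 1, measured 42.3, 55.4 and 57.5 FPKM in Ly-HSCs and 73.5, 93.5 and 90.5 FPKM in My-HSCs, and Itga6, integrin alpha 6, 32.97, 22.95 and 14.4 against 52.9, 35.97 and 54.5 FPKM. Both pair as a laminin receptor, and both were without overlap, with log2 fold changes of 0.72 ± 0.23 and 1.05 ± 0.36. Among cytokine and niche receptor genes 19 of 29 were higher, with a median of 0.21 (0.24 without Ly-HSC library 1), positive under each scaling, and 4 separated upward and 2 downward. Of all tested genes 8.63% separated upward and 4.75% downward. Ifngr1, the interferon gamma receptor, stood at 29.02, 17.6 and 18.1 FPKM in Ly-HSCs and 51.2, 27.3 and 32.8 FPKM in My-HSCs, overlapping through Ly-HSC library 1. Fzd4, a Wnt receptor, was lower in My-HSCs without overlap, at 6.64, 3.78 and 9.09 against 0.211, 2.84 and 2.43 FPKM.

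TGF-beta and BMP signalling genes had no common direction. Of 19 tested members 11 were higher in My-HSCs, and their median of 0.33 became -0.03 with quantile normalization and -0.03 without Ly-HSC library 1. The separated members were 2 in each direction, against 8.63% upward and 4.75% downward over all genes. Neo1, neogenin, a receptor that also binds BMP co-receptors, stood at 0, 0.7599 and 0.0321 FPKM in Ly-HSCs and 6.11, 4.84 and 5.22 FPKM in My-HSCs (limma adjusted p = 0.509), and it too passed the filter through the My-HSC libraries alone. Tgfbr3, the co-receptor betaglycan, measured 18.4, 21.7 and 15.97 against 39.7, 29.9 and 36.1 FPKM. In the opposite direction, Acvr1b, a type I receptor for activins, measured 51.03, 18.6 and 33.4 FPKM in Ly-HSCs and 14.4, 8.995 and 12.5 FPKM in My-HSCs, and Smad4, the shared mediator, 33.5, 31.7 and 39.9 against 21.3, 20.7 and 29.1 FPKM. Inhba, described above, encodes a ligand subunit for receptors of the Acvr1b type. Its entry through the My-HSC libraries alone fixed its direction, so no contrast with Acvr1b is drawn.

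Cell cycle genes were mostly higher in young My-HSCs and mostly lower in old My-HSCs. Of 37 tested members 29 were higher in young My-HSCs (78.4% against 58.6% of all genes), with a median of 0.44, between 0.37 and 0.57 under the other scalings and 0.55 without Ly-HSC library 1. Among members above 0 in all 6 young libraries the median was lower, at 0.26. The libraries separated upward in 4 of the 37 (8.63% of all tested genes did) and downward in none (4.75%), a share near the background. Mcm4, a subunit of the replicative helicase, measured 4.26, 20.9 and 35.9 FPKM in Ly-HSCs and 39.5, 68.3 and 43.6 FPKM in My-HSCs, Hmmr, a spindle-associated hyaluronan receptor, 0, 1.02 and 1.51 against 4.39, 7.87 and 6.63 FPKM, and Ccnd2, cyclin D2, 57.7, 47.3 and 47.4 against 84.7, 70.7 and 65.8 FPKM. In old mice 4 of the 37 were higher in My-HSCs, where 50.9% of all tested genes were, with a median of -0.53. Of the 37, 9 separated downward and 1 upward, against 7.92% and 8.62% of all tested genes in the old. The difference between the ages was tested gene by gene, as described below, and no member passed. Gins2, of the helicase activator, stood at 0.109, 18.2 and 7.24 against 23.4, 17.5 and 28.2 FPKM in the young, and its higher level in My-HSCs turned to the opposite with relative depth as a covariate.

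Quiescence and CDK inhibitor genes were centred near 0, with 8 of 13 higher and a median of 0.07. The 1 member without overlap was Cdkn2d, the inhibitor p19INK4d, lower in My-HSCs, where 4.75% of all tested genes separated downward. It stood at 37.2, 14.5 and 17.2 FPKM in Ly-HSCs and 2.36, 4.11 and 7.602 FPKM in My-HSCs (log2 fold change -2.07 ± 0.59, limma adjusted p = 0.593). Cdkn1c, the inhibitor p57KIP2 of quiescent HSCs, was even in Ly-HSCs at 31.8, 30.2 and 30.1 FPKM and uneven in My-HSCs at 62.5, 19.9 and 75.97 FPKM. Immediate early genes, which cell handling induces, were higher in 5 of 10, with a median of 0.05 that was -0.001 with median-of-ratios scaling and -0.38 without Ly-HSC library 1. Of the 10, 1 separated upward, Gadd45b, and 1 downward, Myc, against 8.63% and 4.75% of all tested genes. Myc measured 183, 115 and 143 FPKM in Ly-HSCs and 92.9, 90.1 and 103 FPKM in My-HSCs (log2 fold change -0.59 ± 0.22). Klf2 ranged from 6.85, 74.4 and 88.8 FPKM over the Ly-HSC libraries to 34.3, 75.3 and 100.02 FPKM over the My-HSC libraries, an overlap.

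Interferon response genes were higher in 21 of 29 members, with a median of 0.22 (0.20 without Ly-HSC library 1), positive under each scaling. Members without overlap were 1 upward and 3 downward, where all tested genes gave 8.63% and 4.75%. Ifit3, induced by type I interferon, was listed at 0, 3.03 and 0 FPKM in Ly-HSCs and 7.26, 8.62 and 12.4 FPKM in My-HSCs. Ifi27, another interferon-induced gene, lay the other way, at 33.6, 52.9 and 49.5 FPKM in Ly-HSCs and 1.49, 10.3 and 24.9 FPKM in My-HSCs (log2 fold change -2.34 ± 0.73), with a wide range among the My-HSC libraries. Antigen presentation genes were higher in 7 of 15, with a median of -0.10 that was positive with quantile normalization (0.03) and as TPM (0.14). Of the 15, 0 separated upward and 2 downward, against 8.63% and 4.75% of all tested genes. Besides H2-DMa, the peptide transporter Tap2 lay lower without overlap, at 112, 113 and 89.7 FPKM in Ly-HSCs and 81.5, 83.1 and 84.5 FPKM in My-HSCs. H2-Ab1, a class II chain, stood at 0, 1.398 and 26.7 against 12.1, 30.99 and 13.996 FPKM, an overlap that its loading chaperone H2-DMa did not show.

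Metabolic and chromatin genes were centred near 0. Of 48 nuclear oxidative phosphorylation genes 24 were higher in My-HSCs, with a median of 0.002 (-0.06 with median-of-ratios scaling, 0.07 without Ly-HSC library 1), and 5 separated upward and 1 downward, against 8.63% and 4.75% of all tested genes. Atp5g3, a subunit of the ATP synthase rotor, measured 9.68, 11.9 and 14.1 FPKM in Ly-HSCs and 34.5, 32.4 and 23.3 FPKM in My-HSCs (log2 fold change 1.26 ± 0.36), and Sdha, of succinate dehydrogenase, 46.1, 59.5 and 58.4 against 79.3, 85.96 and 81.8 FPKM. Of 22 glycolysis genes 9 were higher, with a median of -0.05 (0.03 with quantile normalization, -0.005 without Ly-HSC library 1). Of the 22, 1 separated upward and 1 downward, against 8.63% and 4.75% of all tested genes. The upward member was Gpi1, glucose-6-phosphate isomerase, at 42.4, 61.96 and 65.2 against 84.3, 79.3 and 71.4 FPKM. Of 25 DNA methylation and chromatin genes 12 were higher, with a median of -0.001 (0.08 with quantile normalization, -0.07 without Ly-HSC library 1). Dnmt3b, a de novo DNA methyltransferase, stood at 84.4, 66.2 and 32.7 FPKM in Ly-HSCs and at an even 30.2, 29.95 and 33.9 FPKM in My-HSCs. The 1 member without overlap (4.75% of all tested genes separated downward) was Tet3, a dioxygenase of methylcytosine. It lay lower in My-HSCs, at 26.7, 32.9 and 25.7 against 17.6, 23.3 and 21.96 FPKM.

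**Figure D3:**
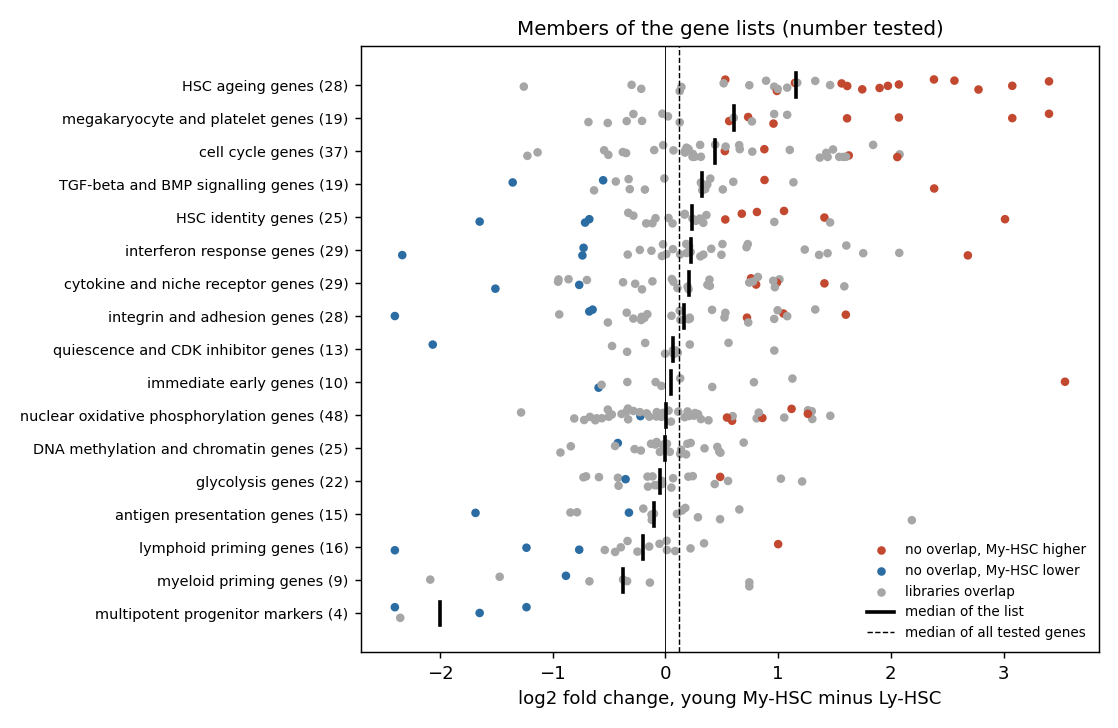
Log2 fold change between the young subsets (My-HSC minus Ly-HSC) of the tested members of 17 gene lists, with the number tested in brackets. Thick bars are list medians, from 1.16 for HSC ageing genes to -2.001 for multipotent progenitor markers, the dashed line is the median of all tested genes (0.12), and colours mark members whose libraries do not overlap; the medians of the TGF-beta and BMP, immediate early, oxidative phosphorylation, chromatin, glycolysis and antigen presentation lists change sign under at least 1 scaling.

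Markers of other cells that a gate could let through were measured in part. Values were at hand for 2 of 10 granulocyte markers, 4 of 8 mast cell and basophil markers and 5 of 11 lineage cocktail antigens, and the others were not analysed here. None of those with values passed the filter, and their summed levels in the young reached 1.41 FPKM for granulocytes, 3.59 FPKM for mast cells and basophils and 9.84 FPKM for the lineage antigens, the last in My-HSC library 1. Erythroid markers summed to 13.3 to 23.3 FPKM in Ly-HSCs and 9.66 to 33.8 FPKM in My-HSCs, dendritic cell markers to 16.2 to 34.7 FPKM and 15.2 to 16.2 FPKM, and endothelial and stromal markers to 25.9 to 31.7 FPKM and 23.3 to 47.8 FPKM. The endothelial cadherin Cdh5 was at 0 in all 6 libraries. Kdr, a receptor of endothelial cells, stood at 0, 0 and 0.0526 FPKM in Ly-HSCs and 9.91, 1.35 and 1.06 FPKM in My-HSCs, and passed the filter through the latter alone. Cd68, a lysosomal protein of macrophages, was listed at 0, 19.3 and 0 FPKM in Ly-HSCs and 17.6, 42.8 and 26.4 FPKM in My-HSCs, overlapping through Ly-HSC library 2. Whether mature cells contribute to the differences above was not tested.

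The 10 most abundant of the tested genes had small differences between the subsets, and none passed the test. The cytosolic ribosomal protein genes, B2m, H2-D1 and H2-K1 were not analysed here and are not ranked. Anp32b, a nuclear histone chaperone, was highest among the tested genes, at 535 ± 109 FPKM in Ly-HSCs and 521 ± 70.3 FPKM in My-HSCs (log2 fold change -0.03 ± 0.19). Ssb, the La RNA-binding protein, Ik, a splicing factor, Calm2, a calmodulin, Iqgap2, a scaffold, Itm2b, a membrane protein, and Hist1h1c, a linker histone, had log2 fold changes between -0.39 and -0.17, with overlapping libraries. Hnrnpab, an RNA-binding protein, was lower in My-HSCs without overlap, at 441, 479 and 482 against 242, 374 and 415 FPKM. The class I gene H2-Q6 was higher in My-HSCs without overlap, at 312, 410.03 and 445 against 518, 462 and 507 FPKM (log2 fold change 0.36), and H2-Q4, at 0.27, overlapped. The levels of both are uncertain, since the division of reads among such near-identical copies was not given in the sources used here.

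The same contrast in old mice used 6 other libraries and no young sample. There, limma called 11 of the 9934 genes (0.111%), 10 higher and 1 lower in My-HSCs. With the replicate number as a block, which treats same-numbered libraries as pairs, it called 3, all higher. Without old My-HSC library 2, or without library 3, limma called 0 genes (694 and 608 at an unadjusted p under 0.05). Without overlap, 856 genes (8.62%) were higher and 787 (7.92%) lower. Of the 857 genes that separated upward in the young, 63.4% were higher in old My-HSCs and 169, or 19.7%, separated in the same direction, against 8.62% of all tested genes. Of the 472 that separated downward in the young, 65.7% were lower in old My-HSCs and 87, or 18.4%, separated in the same direction, against 7.92% of all. The granulocyte markers with values summed to 100.2 FPKM in old Ly-HSC library 1 and 83.8 FPKM in old My-HSC library 1. In the other old libraries they summed to 1.13 to 6.14 FPKM. Erythroid markers summed to 146.3 and 110.1 FPKM in the same libraries 1, against 15.1 to 32.1 FPKM in the others. Whether mature cells contribute to the old differences was not tested.

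Vwf, Sdpr, Slamf1, Cd34 and Cd27 were separated in the old as well. Old Ly-HSCs measured 7.66, 4.61 and 3.61 FPKM of Vwf and old My-HSCs 35.3, 48.7 and 44.2 FPKM (log2 fold change 2.84 ± 0.28, limma adjusted p = 0.00868, 0.0737 with the replicate block). Sdpr measured 36.5, 42.8 and 39.8 against 107, 152 and 146 FPKM (adjusted p = 0.00868, 0.0414 with the block), and its old Ly-HSC libraries overlapped the young My-HSC libraries. Slamf1 measured 1.78, 8.33 and 6.47 against 26.4, 35.3 and 30.96 FPKM (adjusted p = 0.0994), Cd34 34.3, 42.6 and 33.97 against 4.32, 9.82 and 11.2 FPKM (adjusted p = 0.0615) and Cd27 131, 109 and 147 against 49.2, 69.6 and 74.8 FPKM (adjusted p = 0.128). All 5 were without overlap at both ages. Called in the old without the block and named after its value was seen, Runx3, a transcription factor of lymphocytes, was the 1 lower gene, with 29.99, 36.98 and 40.3 FPKM in old Ly-HSCs and 8.997, 6.78 and 8.32 in old My-HSCs (limma adjusted p = 0.0123, a call lost with the block at 0.0737), and it was separated in the young at 30.8, 41.8 and 42.97 against 20.8, 12.7 and 10.01 FPKM. Clu stood at 0.818, 1.29 and 0.558 FPKM in old Ly-HSCs, with old My-HSCs at 19.6, 39.2 and 32.4 FPKM (adjusted p = 0.00721, 0.0414 with the block), and Fgd5 at 23.7, 25.5 and 25.1 against 61.04, 60.4 and 59.8 FPKM (adjusted p = 0.0165, 0.0737 with the block).

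Other genes separated the subsets in the young and not in the old. They were named for their young values, so their young and old differences cannot be compared on equal terms. For Zfp456 the filter had fixed the separation in the young. Zfp456 stood at 4.88, 7.78 and 6.75 FPKM in old Ly-HSCs and 6.73, 3.48 and 5.25 FPKM in old My-HSCs and Gadd45b at 14.95, 7.17 and 18.1 against 22.04, 11.8 and 16.9 FPKM, each with overlap. Psma5, lower in young My-HSCs, stood at 62.5, 39.4 and 39.2 against 59.7, 61.7 and 58.2 FPKM in the old, and H2-DMa at 32.6, 29.8 and 23.4 against 24.6, 32.4 and 27.6 FPKM. Of the 14 named genes higher in young My-HSCs, 11 were higher and 7 separated upward in the old. Among all tested genes, 50.9% were higher there and 8.62% separated upward. Of the 18 lower, 14 were lower and 4 separated downward, against 49.1% and 7.92% of all tested genes. Inhba, P3h2, Chil5, Zfp456 and Bpifb5, among the 14, had entered through the young My-HSC libraries alone. Zfp580, among the 18, had entered through the young Ly-HSC libraries alone. The test of the difference itself, the interaction of subset and age over all 12 libraries, called 0 genes (0%) by limma, with 556 at an unadjusted p under 0.05 and a smallest adjusted p of 0.497, that of Zfp456. A change of these subset differences with age was therefore not detected in this fit, which does not show that there is none.

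**Figure D4:**
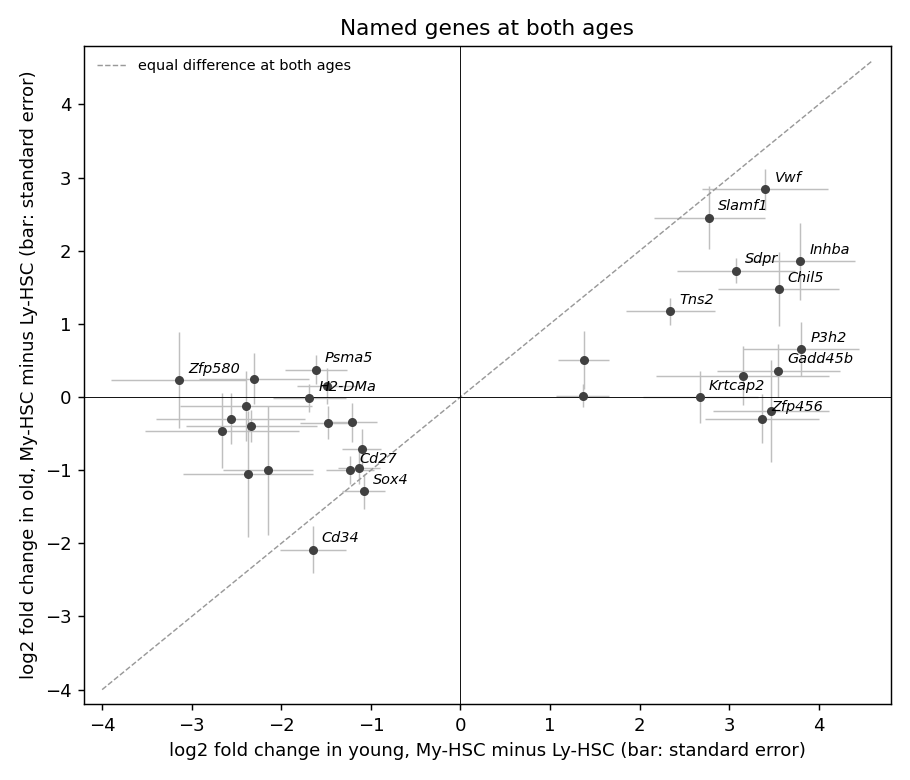
Log2 fold change of My-HSC minus Ly-HSC in the old (y axis) against the young (x axis) for the 14 named genes higher and the 18 lower in young My-HSCs; bars are limma standard errors and the dashed line marks equal differences. Vwf, Slamf1, Cd34, Cd27 and Sox4 lie near the line and Zfp456, Krtcap2 and H2-DMa near 0 on the y axis. Chil5 is listed at 0 in all young Ly-HSC libraries, so its x position depends on the pseudocount. The same holds for Inhba, Bpifb5, Gadd45b, Zfp456 and P3h2, at 0 or low in young Ly-HSCs, and for Zfp580, at 0 or low in young My-HSCs. All genes shown were chosen by their young values.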

How the data were processed

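RNA-seq of sorted HSCs was deposited as 1 table of FPKM per gene and library. The deposited FPKM values were normalized by the authors, per the labels, and their read totals are unknown. The labels' protocols give Direct-Zol extraction, the KAPA stranded mRNA kit and paired-end reads on a HiSeq3000. Tools listed in the submitters' processing notes are bcl2fastq 2.17, STAR and DESeq2, with the build GRCm38 (mm10), while annotation and multi-mapping rules were not given in the sources used here. Groups and replicate numbers come from the sample titles.

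FPKM were tested as log2(FPKM + 1), a pseudocount of 1, with limma 3.58.1 in R 4.3.3, an intensity trend and two-sided tests, with Benjamini-Hochberg adjustment over the 9934 genes and calls at an adjusted p under 0.05. The main fit held the 6 young libraries (4 residual and 5.6 prior degrees of freedom), the old contrast the 6 old ones, and the interaction all 12. The script was tested on simulated data. Tables and figures were made with Python 3.11.15, pandas 2.3.3 and matplotlib 3.10.9. Coordinates are from GENCODE M21, which matched 14139 genes, and promoter windows from RefSeq. Relative depth was estimated from the spacing of low values (under 0.5 FPKM) and is approximate. Deviations from the group means correlated at 0.053, -0.004 and 0.005 between same-numbered young libraries and at 0.141, 0.187 and 0.135 between same-numbered old libraries. The numbers were therefore taken as a possible pairing of the old libraries and not of the young. This pairing is inferred from these weak correlations alone.

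The genes and lists were chosen with earlier results of these data known. Genes named in the text were those called, the 12 per direction with the smallest p among separated genes with a mean of at least 5 FPKM, the 6 per direction with the largest change among separated genes above 0 in all 6 libraries, the sort antigens, up to 4 tested members of each list by p, and the 10 most abundant; a few of these genes are not reported here. Alternatives varied the pseudocount, filter, scaling, block, prior, weights, libraries in the fit and each library. List members without values were not analysed here, among them Kit and the cytosolic ribosomal protein genes.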

Additional observations from a re-analysis of the deposited data

How the results depend on the processing

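The count of genes called between the young subsets was 0 under 17 of 18 alternatives, leaving out each library included, and 13 with all 12 libraries in the fit. With the replicate block 0 genes were called in the young (634 at p under 0.05), 3 in place of 11 in the old and 0 in the interaction. The old count was 0 without a filter on low values, 28 with quantile normalization, 1 without an intensity trend and 0 to 17 when 1 library was left out. Leaving out the old Ly-HSC libraries in their order gave 17, 2 and 3 called genes, and leaving out those of the old My-HSCs 8, 0 and 0. The interaction count was 1 without a filter and 1 without an intensity trend, and 0 when any 1 library was left out. Genes without overlap numbered 1985 to 2825 in place of 1329 when 1 library was left out, where 3 libraries against 2 separate more often by construction. The split of higher against lower among them was 693 against 575 with quantile normalization.

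Of 1726 values of 97 named genes under an alternative, 9 newly passed, all with 12 libraries in the fit, and 21 had the opposite sign, none of them past the threshold. With relative depth as a covariate, an alternative chosen after seeing the data, log2 fold changes were -0.96 for Cd79b, -0.26 for Gins2, 0.72 for H2-DMb1, -1.32 for Klf2, 1.47 for Lck, -0.37 for Slc16a1, -0.21 for Suz12, 0.14 for Tcf4 and -0.078 for Tet1. Irf8 stood at -0.23 with quantile normalization and Lck at 0.20 with library weights. When 1 library was left out, the values ran from -0.20 to 1.67 for Cd79b, from -0.40 to 0.24 for Emcn, from -0.35 to 1.41 for Klf2, from -0.84 to 0.62 for Lck, from -0.39 to 0.079 for Tcf4 and from -0.28 to 0.10 for Tfrc. Omission of young Ly-HSC library 1 gave the opposite sign in Cd79b, Klf2, Lck, Tcf4 and Tfrc, that of Ly-HSC library 2 in Emcn and Tfrc, that of My-HSC library 3 in Emcn and Tfrc, and that of My-HSC library 1 in Tfrc. The cause was not tested. Of 431 list medians under an alternative, 44 moved by more than the spread between libraries.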

Other observations

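Syk, Btk and Cd37 lay lower in My-HSCs at both ages, passed no test in the young, and were chosen after their values were seen. Syk, a tyrosine kinase of immune receptors, measured 63.5, 47.1 and 78.7 FPKM in young Ly-HSCs and 21.2, 29.7 and 31.003 FPKM in young My-HSCs, and 40.1, 42.4 and 44.6 against 39.4, 15.9 and 15.9 FPKM in the old subsets. Btk, a kinase of the B cell receptor pathway, measured 55.4, 60.7 and 90.9 against 27.9, 38.9 and 44.2 FPKM in the young, and 62.2, 51.8 and 47.4 against 34.9, 34.3 and 31.9 FPKM in the old. Cd37, a tetraspanin of leukocytes, measured 46.97, 36.5 and 37.3 against 12.3, 9.98 and 21.5 FPKM in the young, and 43.6, 32.7 and 38.7 against 23.7, 8.87 and 9.14 FPKM in the old. For these 3 genes the Ly-HSC libraries lay wholly above the My-HSC libraries at each age, as they did for 87 genes in all. The limma adjusted p in the young was 0.494 for Syk, 0.63 for Btk and 0.494 for Cd37.

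Single genes of the marker lists differed widely between libraries of 1 subset. Lck, a T cell kinase, was highest in young Ly-HSC library 1, at 32.5, 3.42 and 6.14 FPKM over the Ly-HSC and 9.66, 6.73 and 6.85 FPKM over the My-HSC libraries. Cd79b, of the B cell receptor, was lowest in that library, at 0.114, 7.14 and 13.96 FPKM in Ly-HSCs and 13.3, 2.76 and 15.4 FPKM in My-HSCs. Epor, the erythropoietin receptor, stood at 0.562, 0.162 and 4.31 against 0.0389, 4.26 and 12.3 FPKM, and Tfrc, the transferrin receptor, at 12.7, 14.3 and 8.47 against 9.44, 15.98 and 9.29 FPKM.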
